A study of Rattus norvegicus with 6 samples.

Results

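The cytosolic ribosomal protein genes were taken as all rows of the deposited table whose symbol is *Rpl* or *Rps* followed by a number, with at most an a, x or y behind it, together with *Rpsa*, *Rplp0*, *Rplp1* and *Rplp2*. The Rps6k kinases were left out, and at least 60 counts over the 6 libraries were required. Of the 22050 genes in the table, 71 met this rule, 44 for proteins of the large subunit and 27 for proteins of the small subunit. These 71 rows carry 67 different symbols, since some symbols are listed under more than 1 identifier. A further 10 rows had a fitting symbol and too few counts, and 9 of those were at 0 in every library.

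RNA-seq was performed on spinal cord tissue of male Sprague-Dawley rats, 8 to 10 weeks old per the study's methods. In 3 SNI-NP rats the sciatic nerve was injured with 1 branch spared (spared nerve injury, a model of neuropathic pain), and 3 sham rats received the sham procedure. The labels give neither the days after surgery nor the segment or side of the cord, and they do not say whether tissue was pooled. The comparison addresses which transcripts differ in the cord after the injury.

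The cytosolic ribosome is built from a small subunit, which reads the mRNA, and a large subunit, which joins amino acids, and most of its proteins are present in 1 copy each. Their mRNAs are among the most abundant in growing and resting cells and are coordinated as a family. They typically begin with a cytosine inside a run of pyrimidines, the 5′ terminal oligopyrimidine (TOP) motif, through which mTORC1 and Larp1 control their translation. In neurons, local ribosomes serve protein synthesis in axons and dendrites, and mTORC1 signaling in the spinal cord has been studied in persistent pain. Levels of RNA measured here do not report on translation.

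The start sites of some members are shown because the run of C and T bases at the start is what these genes have in common in sequence. Promoter sequences from RefSeq (assembly GRCr8, which is not the build of the deposited table) matched 55 of the 67 symbols. Each window holds 35 bases before and 15 bases from the annotated start, 5′ to 3′ on the strand of the gene, with the longest run of C or T that reaches into the 25 bases on either side of the start in capitals. *Rplp1* is at chr8:71290858-71290907 (minus strand), *Rps27* at chr2:177964592-177964641 (minus strand) and *Rpl10* at chrX:157205815-157205864 (plus strand), with runs of 10, 9 and 13 bases at the start. *Rps2* at chr10:14251813-14251862 (plus strand) had 1 of the largest positive log2 fold changes, and its run has 20 bases. *Rpl35* at chr3:43165907-43165956 (minus strand) and *Rpl37* at chr2:55942910-55942959 (plus strand) were on the negative side, with runs of 18 and 11 bases. *Rpl41* at chr7:1563483-1563532 (minus strand), among the 3 most abundant members per length, is shown as a window without such a run.
Rplp1: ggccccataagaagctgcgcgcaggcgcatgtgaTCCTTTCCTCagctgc
Rps27: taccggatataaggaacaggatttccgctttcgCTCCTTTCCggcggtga
Rpl10: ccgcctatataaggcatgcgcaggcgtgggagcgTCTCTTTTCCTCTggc
Rps2: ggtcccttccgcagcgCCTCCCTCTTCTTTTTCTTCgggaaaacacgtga
Rpl35: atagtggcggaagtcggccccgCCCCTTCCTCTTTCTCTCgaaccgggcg
Rpl37: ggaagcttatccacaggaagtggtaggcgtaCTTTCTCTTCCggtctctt
Rpl41: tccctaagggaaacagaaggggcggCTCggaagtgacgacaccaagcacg
Of the 55 matched members, 43 (78.2%) had a run of at least 8 C or T bases in the window of 25 bases on either side of the start, compared with 19.4% of all 33469 promoters. The median longest run was 10 bases in the members and 5 in all promoters. The letters CTTTCC stood on the strand of the gene in 15 members (27.3%; 2.19% of all promoters) and on the other strand in 1 (1.82%; 2.23% of all promoters). The letters CCGGAAG, which contain the core of the ETS and GABP motif, were found on either strand of the 300-base promoter in 17 members (30.9%; 8.75% of all promoters). A match of letters is a description and not a site of binding, and both the runs and CTTTCC overlap each other.

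The libraries held between 16670760 and 18151156 estimated counts, and the members took 1.45%, 1.98% and 1.59% of them in sham rats and 1.7%, 1.76% and 1.47% in those with SNI-NP. Sham replicate 2 had the largest share and Sham replicate 1 the smallest, so the sham rats bracketed the SNI-NP rats. The tissue carried markers of peripheral nerve beside those of the cord. The summed level of 8 peripheral myelin genes was 102848 to 148593 CPM (counts over the TMM-adjusted library total), and that of 15 neuronal genes was 3761 to 11197 CPM, with SNI-NP replicate 1 lowest. Each of these markers had a count. The peripheral myelin list includes *Mbp*, which is also in the oligodendrocyte list, so the peripheral sum is not of peripheral nerve alone. In bulk tissue, fewer cells of a type and less RNA per cell cannot be told apart.

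Per length of transcript, the members were abundant. Their median FPKM (counts scaled by the length of the transcript and the total of the library) was 317 over the 70 members tested, 21.8 over 73 genes for mitochondrial ribosomal proteins and 7.98 over all 14426 genes tested. Of the 100 genes with the highest mean FPKM, 11 were members, and of the top 200, 34 were. The acidic stalk of the large subunit, which recruits the elongation factors, led the list. *Rplp0* (ENSRNOG00000001148), the anchor of the stalk, had a mean FPKM of 816, and *Rplp1* (ENSRNOG00000013874), a stalk protein, had 786. *Rpl41*, for the smallest protein of the ribosome, followed with 756. *Rps16*, of the small subunit, was at 678 and *Rpl19*, of the large subunit, at 656.
At the other end stood rows of proteins that also had counts under other rows. *Rplp2*, the partner of *Rplp1* in the stalk, had a mean FPKM of 23.4, *Rps21* of 21.6, *Rpl30* of 32.6 and *Rpl36a* of 62. The second row of *Rpl32* (ENSRNOG00000032605) was at 1.59. All 5 of these rows had counts that are not whole numbers. *Rpl7* had a mean FPKM of 71.3, although its level without regard to length was 360 to 374 CPM as group means, because its transcript was entered with 5151 bases.

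The summed level of the 71 members was 14497, 19006 and 15873 CPM in sham rats, and 17779, 17423 and 14892 CPM in those with SNI-NP. The highest and the lowest value were both in sham rats, and the SNI-NP values lay between them. The group means were 16459 ± 2311 CPM under sham surgery and 16698 ± 1574 after injury (SD, n = 3 per group), and their log2 ratio was 0.02. The highest library was 1.31 times the lowest. The large subunit members summed to 10236 ± 1411 and 10381 ± 923 CPM, and the small subunit members to 6223 ± 899 and 6317 ± 655 CPM. The ratio of the large to the small subunit sum was 1.61 to 1.67 in every library, so both subunits rose and fell together from rat to rat.

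**Figure D1:**
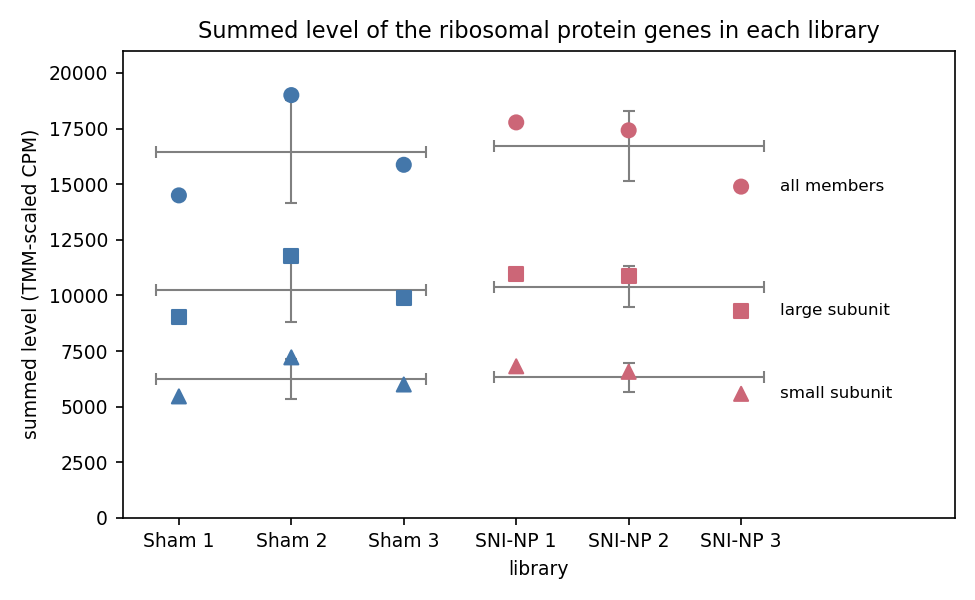
The summed level of the ribosomal protein genes in TMM-scaled CPM (vertical axis) is plotted for each of the 6 libraries (horizontal axis; blue, sham; red, SNI-NP), with circles for all 71 members, squares for the large and triangles for the small subunit. Grey horizontal lines mark the group means and grey vertical lines the SD (n = 3). The sham rats span 14497 to 19006 CPM and enclose the SNI-NP rats.

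The members shared an order over the libraries. Of the 70 members tested, 44 were highest in Sham replicate 2, 16 in SNI-NP replicate 1 and 8 in SNI-NP replicate 2, and 1 each in the other sham libraries. The lowest library was SNI-NP replicate 3 for 35 members and Sham replicate 1 for 33. Over all genes tested, 18.0% were highest in Sham replicate 2, and 9.81% and 17.6% were lowest in these other libraries. The median SD within groups was 0.18 on the log2 CPM scale for the members and 0.06 once each member was divided by the sum of the family. The same division raised it from 0.15 to 0.21 for the mitochondrial ribosomal protein genes and from 0.15 to 0.24 for 5383 other genes of similar abundance. Each member is part of the sum it was divided by. Summed levels of the microglial markers were also highest in Sham replicate 2 (705 CPM) and lowest in Sham replicate 1 (477 CPM), and all 14 of those markers had a count. In the SNI-NP rats they were at 567, 581 and 632 CPM, highest in replicate 3, where many members were lowest. The astrocyte markers had 6681, 4304 and 5707 CPM in sham rats and 5834, 5319 and 4465 CPM in SNI-NP rats. The oligodendrocyte markers had 41632, 30830 and 34463 CPM in sham rats and 40718, 30565 and 33628 CPM in SNI-NP rats, so both were highest in Sham replicate 1. Their part in the order of the libraries was not tested.

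**Figure D2:**
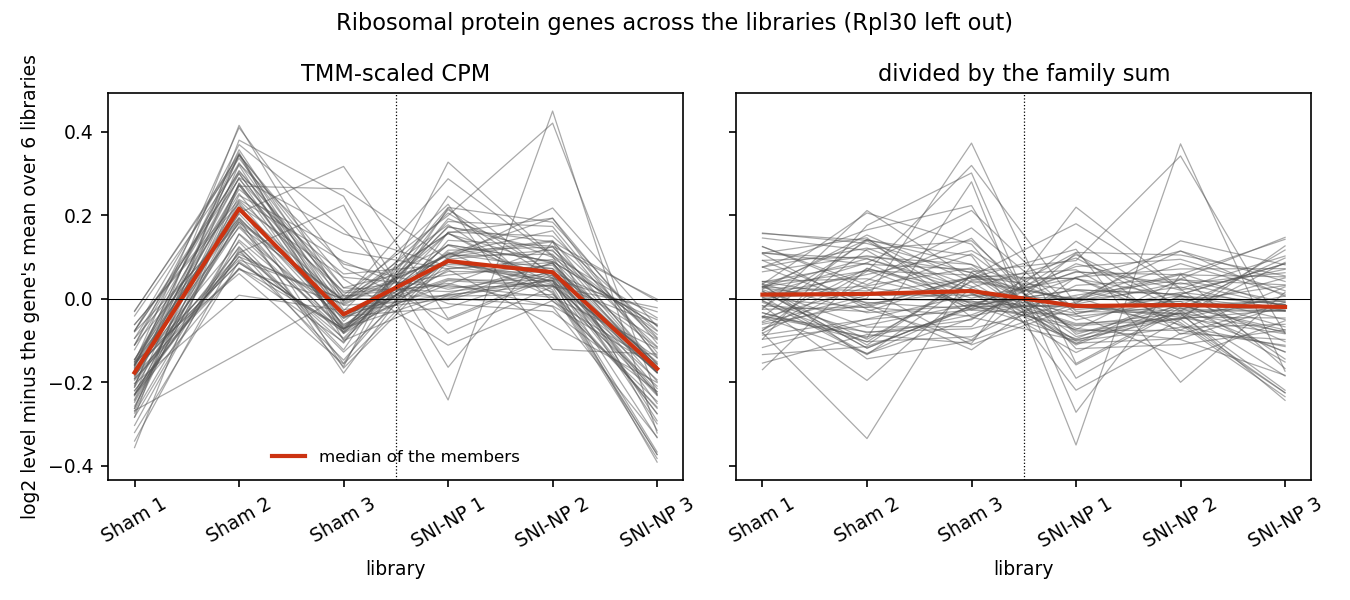
Each grey line is 1 of 69 members (Rpl30 left out), with its log2 level minus its own mean over the 6 libraries on the vertical axis and the libraries on the horizontal axis; the red line is the median. On the left, in TMM-scaled CPM, most lines peak in Sham replicate 2 and dip in Sham replicate 1 and SNI-NP replicate 3; on the right, after division by the family sum, the median line is flat.

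No member passed the test between the groups. At an adjusted p-value under 0.05 in edgeR's quasi-likelihood test, 0 of the 70 members passed, as did 0% of all 14426 genes. At an unadjusted p-value under 0.05, 0 members were higher and 0 lower after injury, beside 4.91% (higher) and 5.94% (lower) of all genes. DESeq2 gave 0 members and 210 genes in all at an adjusted p-value under 0.05. The log2 fold changes (SNI-NP over sham) had a median of -0.02 in the members and 0.01 over all genes tested, with 31 positive and 39 negative. Apart from *Rpl30* they lay between -0.29 and 0.28, and the edgeR adjusted p-values of the members were between 0.51 and 0.999.
The intervals show what size of change was within reach. The 95% interval of the log2 fold change stayed within a fold change of 2 in either direction for 69 of the 70 members, and within 1.5 for 59. Its median half-width was 0.33. The exception at 2-fold was *Rpl30*, with -5.44 to 0.84. The p-values measure the spread between these samples, which the labels number as replicates without saying more about their origin.

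**Figure D3:**
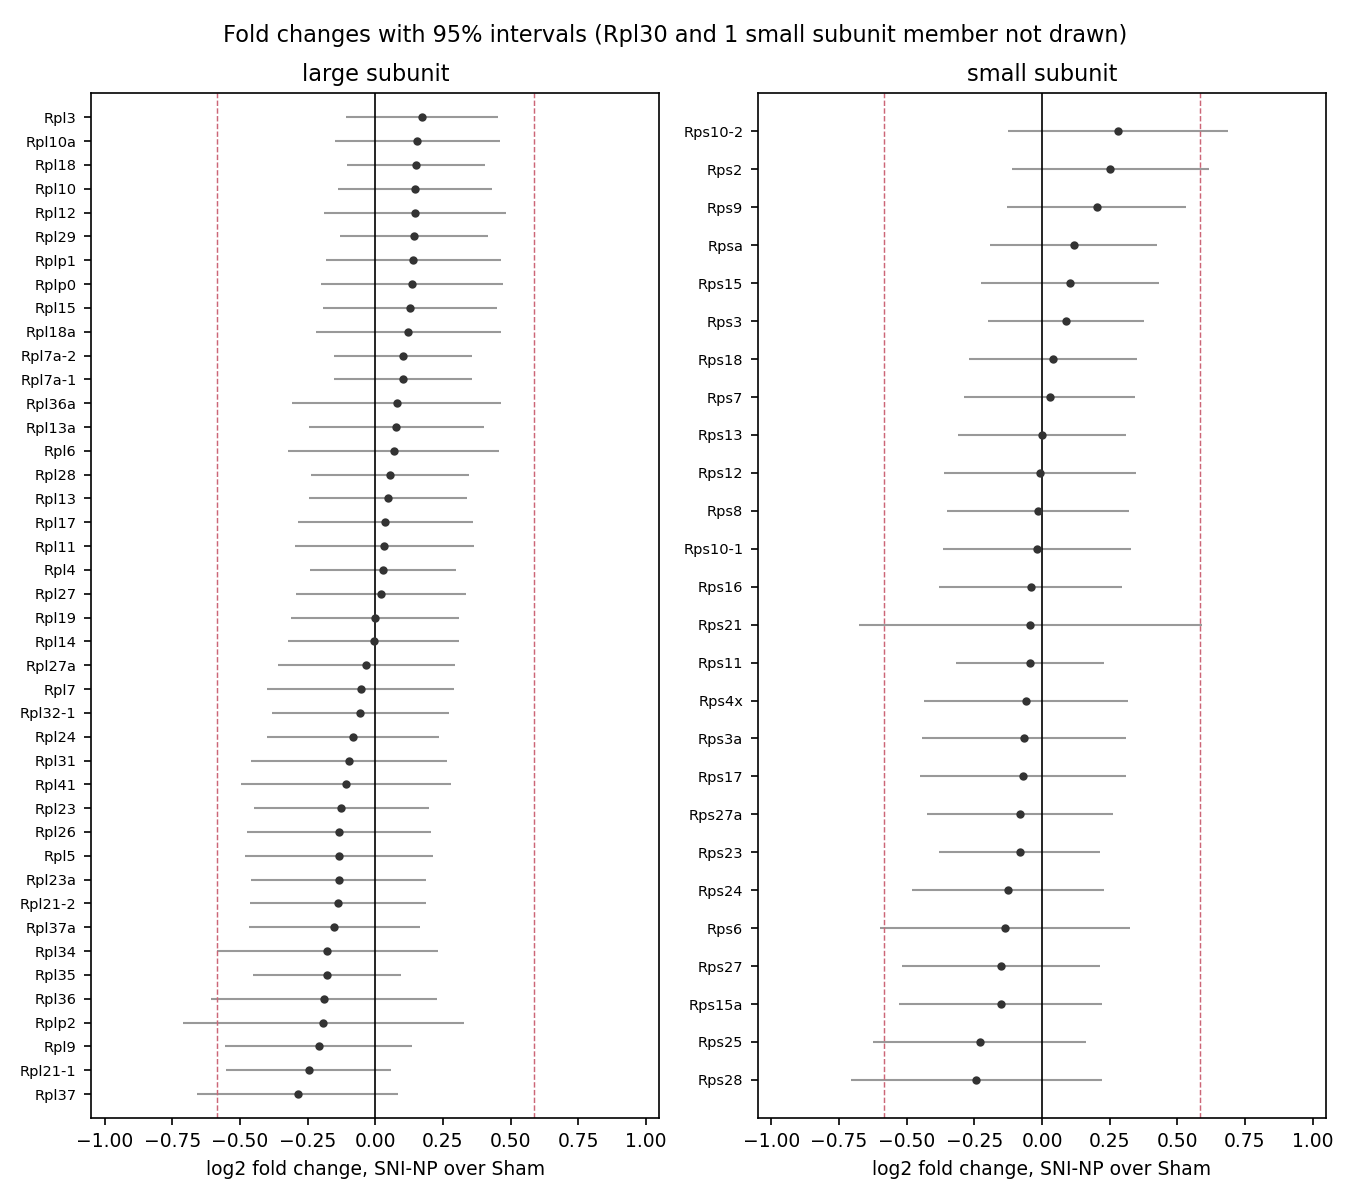
Log2 fold changes, SNI-NP over sham (horizontal axis), with 95% intervals from edgeR are shown for 42 large subunit and 26 small subunit members, with *Rpl30* and 1 small subunit member not drawn (vertical axis; a number after the symbol tells rows of 1 symbol apart). Dashed lines mark a fold change of 1.5. All points lie between -0.29 and 0.28 and every interval includes 0. The interval of Rpl30, -5.44 to 0.84, would compress the scale.

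Among members with positive values, those with the smallest p-values are given first, although none passed the test. By subunit, 10 of 27 small subunit members were positive with a median log2 fold change of -0.04, and 21 of 43 large subunit members with a median of -0.00. *Rps2*, which lines the path by which mRNA enters the ribosome, was at 399, 549 and 452 among sham rats, against 634, 543 and 489.9 after injury, in CPM. The SNI-NP rats lay in the upper part of the sham range and above it, and the groups overlapped. Its means were 467 ± 75.9 CPM under sham surgery and 556 ± 73 after injury (SD, n = 3 per group), which gave a log2 fold change of 0.25 (SE 0.16) and an edgeR adjusted p of 0.56.
The second row of *Rps10* (ENSRNOG00000052141), whose protein is marked with ubiquitin on collided ribosomes, had 41.4, 45.5 and 50.1 among sham rats, against 57.2, 66.7 and 42.5 after injury. The third SNI-NP value fell within the sham range. Its log2 fold change was 0.28 (SE 0.17), whereas that of the first row (ENSRNOG00000000490) was -0.02 (SE 0.15), so rows under 1 symbol did not take the same value. Both rows had counts that are not whole, so their values may not be separate measurements. Together they held 68.3% to 72.7% of the S10 counts, the rest being under *Rps10l1*. The S10 sum had a log2 ratio of 0.17, and its groups overlapped. *Rps9*, a primary binder of the small subunit RNA, had a log2 fold change of 0.20 (SE 0.14). *Rpl3*, near the catalytic center of the large subunit, had 0.17 (SE 0.12), from 517 ± 61.9 CPM under sham surgery and 582 ± 30.9 after injury (SD, n = 3 per group). For both of these genes the SNI-NP and the sham values overlapped.

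Among members with negative values, the first row of *Rpl21* (ENSRNOG00000000957) had the smallest p-value of the family, with 147, 190.5 and 155 among sham rats, against 139, 149.6 and 127 after injury, in CPM. The second SNI-NP value lay within the sham range. The log2 fold change was -0.25 (SE 0.13), with an edgeR adjusted p of 0.51, and the second row (ENSRNOG00000032803) had -0.14 (SE 0.14). Counts of both rows are not whole, whereas the rows of L21 add up to whole counts within 0.05 counts. The L21 sum had a log2 ratio of -0.19, and its groups overlapped.
*Rpl37*, a zinc finger protein of the large subunit, was at 101, 141 and 123 among sham rats, against 103, 112 and 84.6 after injury, in CPM, a log2 fold change of -0.29 (SE 0.16). The SNI-NP rats lay in the lower part of the sham range and below it. *Rpl37* held 79.2% to 84.0% of the L37 counts, the rest being under LOC100360841. The L37 sum had a log2 ratio of -0.28, and its groups overlapped. *Rpl35*, beside the exit of the peptide tunnel, had -0.18 (SE 0.12), and *Rpl9* had -0.21 (SE 0.15). The row of *Rpl9* shared the L9 counts with 1 called L9-like, described with the copies. The L9 sum had a log2 ratio of -0.13, and its groups overlapped.

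The proteins of the stalk and the proteins with roles outside elongation did not pass the test, and their group ranges overlapped. *Rplp0* was at 729, 978 and 845 among sham rats, against 999, 975 and 830.2 after injury, in CPM, with a log2 fold change of 0.14 (SE 0.14). Its values were lowest in Sham replicate 1 and close to each other in Sham replicate 2 and in SNI-NP replicates 1 and 2. *Rplp1* had 0.14 (SE 0.14) and *Rplp2* -0.19 (SE 0.22). *Rpsa*, also known as a laminin receptor precursor, was at 622 ± 71.5 CPM under sham surgery and 674 ± 72.5 after injury (SD, n = 3 per group), so its log2 fold change was 0.12 (SE 0.13).
*Rps6*, the target of the S6 kinases downstream of mTORC1 and widely used as a marker of neuronal activity when phosphorylated, was at 119, 183 and 137 among sham rats, against 153, 139.6 and 106 after injury, in CPM. The ranges of the groups overlapped. Its log2 fold change was -0.14 (SE 0.20), and its coefficient of variation within groups was 20.5%, after *Rpl30* (101%) and *Rps21* (23.3%) the highest in the family. All 3 of these rows had counts that are not whole. The *Rps6* row held only part of the S6 counts. The S6 sum was 299 ± 55.6 CPM under sham surgery and 259 ± 27.5 after injury (SD, n = 3 per group). Its log2 ratio was -0.21, and its groups overlapped. Among the most abundant members, *Rpl41* had a log2 fold change of -0.11 (SE 0.17), *Rps16* of -0.04 (SE 0.14) and *Rpl19* of -0.00 (SE 0.13).

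*Rpl30* (ENSRNOG00000005975) was the member with the largest difference and the only one whose groups did not overlap, against 8.15% of all genes tested with SNI-NP below sham; 0 members had SNI-NP above sham, against 10.4%. Its deposited counts were 415.48, 319.85 and 229.25 among sham rats, against 197.5, 1.25 and 0 after injury. A count of 0 allows up to 3 counts in that library, and counting error only is covered by this limit. The log2 fold change was -2.30 (SE 1.34), with an edgeR adjusted p of 0.542. A second row of the table, LOC100362027 (ENSRNOG00000032825), is described as L30-like and had 1295.52, 2192.15 and 1540.75 among sham rats, against 1635.5, 1595.75 and 1475 after injury. Its values overlapped between the groups, with a log2 fold change of -0.12 (SE 0.17).
The counts of both rows add up to whole numbers in every library, 1711, 2512 and 1770 among sham rats, against 1833, 1597 and 1475 after injury. *Rpl30* held between 0 and 24.3% of these sums. The sums correspond to 116 ± 22.3 CPM under sham surgery and 93.2 ± 10.7 after injury (SD, n = 3 per group), a log2 ratio of -0.31, and SNI-NP replicate 1 lay above the lowest sham library, so the groups overlapped. The overlap was narrow, with SNI-NP replicate 1 at 105 CPM and the sham libraries at 103, 142 and 103 CPM. With TMM factors recomputed after rows of each protein were added, the sum was 102.8, 146.8 and 102.5 CPM in sham rats and 102.3, 88.84 and 85.13 CPM in SNI-NP rats, now without overlap by a small margin, and the log2 fold change was -0.35 (unadjusted p = 0.069, edgeR adjusted p = 0.486). Whether the groups overlapped in the sum thus depended on the scaling. Without SNI-NP replicate 1 the *Rpl30* row passed the adjusted threshold of edgeR (log2 fold change -9.04, adjusted p = 0.00683), where the SNI-NP counts were 1.25 and 0 and the fitted value depends on the prior count.

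**Figure D4:**
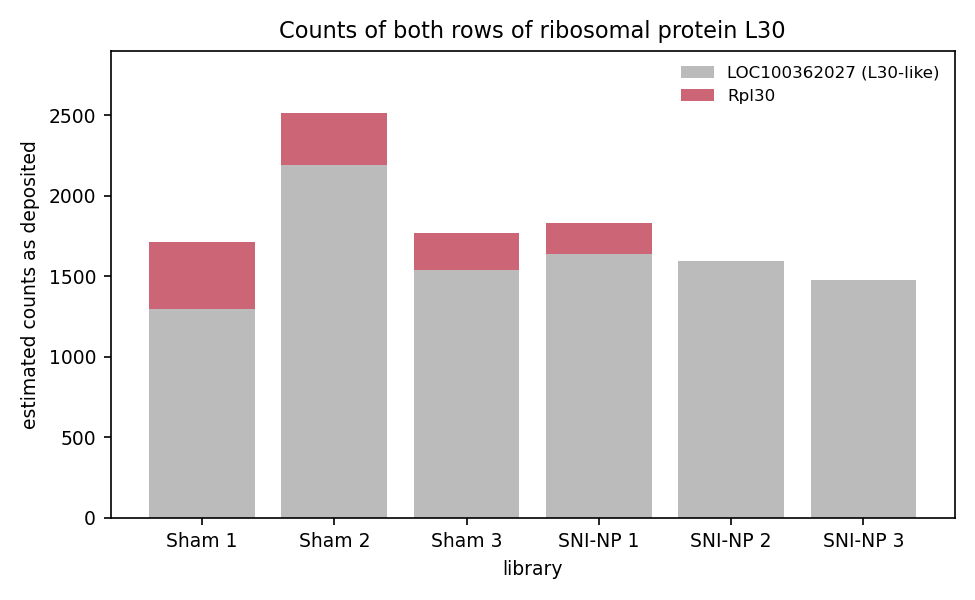
Estimated counts as deposited (vertical axis) of both rows of ribosomal protein L30 are stacked for each library (horizontal axis; grey, LOC100362027; red, Rpl30). The red part shrinks from 415.48 counts in Sham replicate 1 to 0 in SNI-NP replicate 3, whereas the total stays between 1475 and 2512 counts.

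Division of reads between rows reached beyond *Rpl30*. Counts that are not whole occurred in 37 of the 71 members, compared with 2018 of the 17508 genes with a count in the table. These 37 rows belong to 33 proteins, and for 26 of those the rows of the protein add up to whole counts in every library, within 0.05 counts. The median absolute log2 fold change was 0.11 both in the 34 members with whole counts and in the 36 tested members with counts that are not whole.
*Rplp2* had counts equal to those of LOC100911575 in every library, and the largest row of the stalk protein P2 was LOC498555, with 1395.98, 1782.39 and 1627.86 among sham rats, against 1945.87, 1824.42 and 1664.47 after injury. *Rplp2* thus held 5.66% to 8.45% of the P2 counts. *Rps6* held 46.7% to 55.6% of the S6 counts, the rest being under LOC100911372, whose log2 fold change was -0.28 (SE 0.13). *Rps21* held 7.61% to 11.0% of the S21 counts, beside AC141489.1. Both rows of *Rpl7a* were identical, and both are counted among the members.
The second row of *Rpl32* was counted at 0, 0 and 0 among sham rats, against 0, 35.54 and 40.05 after injury. It was the member removed by the filter on low counts, and the first row (ENSRNOG00000010746) had a log2 fold change of -0.06 (SE 0.14). The L32 sum was 189.7 ± 27.0 CPM under sham surgery and 184.0 ± 19.4 after injury (SD, n = 3 per group). Its log2 ratio was -0.04, and its groups overlapped. *Rpl9* held 88.6% to 98.9% of its protein's counts, and the L9-like row LOC100360449 had 46.09, 84.48 and 268.33 among sham rats, against 131.5, 615.9 and 384.95 after injury. *Rps3a* held 91.6% to 100% of the S3a counts, with LOC100365839 at 401.4, 617.33 and 0.04 among sham rats, against 40.83, 0 and 1.9 after injury. The log2 fold change of LOC100365839 was -4.57 (SE 1.73). These copies differed more between rats of 1 group than the member of the same protein.

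Summed per protein, the table named 79 cytosolic ribosomal proteins, 78 of them with at least 60 counts. The log2 ratio of the protein sums had a median of -0.02 and ranged from -0.49 to 0.25, and for 0 proteins did the groups separate under the scaling used for the single rows. With TMM factors recomputed on the summed rows, 1 of 67 members separated, with SNI-NP below sham, against 9.86% of all genes, and this was *Rpl30*. There were 12 proteins without a member row, among them L8, L22, L35a, L38, S14 and S19, and 11 of them had at least 60 counts under other symbols. The row named *Rpl8*, for instance, was at 0 in every library, while LOC100360117, described as L8-like, had 6333, 7496.96 and 6760.96 among sham rats, against 8140.9, 8029 and 6937 after injury.

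Paralogs with genes of their own were also listed. *Rpl36al*, a retrotransposed copy of *Rpl36a*, was at 38 ± 9.84 CPM under sham surgery and 37.3 ± 4.24 after injury (SD, n = 3 per group). Its counts are not whole and add up with those of *Rpl36a* to 1114, 1658 and 1289 in sham libraries and 1581, 1490 and 1141 in SNI-NP libraries, so the values of these rows are not separate measurements. *Rps27l*, a p53-responsive relative of *Rps27*, was at 22 ± 3.47 CPM under sham surgery and 20.2 ± 2.28 after injury, and *Rpl7l1* at 30.8 ± 0.962 CPM under sham surgery and 32.7 ± 2.68 after injury. *Rps4y2*, a relative of the X-linked *Rps4x*, had 4.24 ± 2.18 CPM under sham surgery and 3.19 ± 0.1 after injury, and *Rpl22l1*, which can replace L22, had 22 ± 0.958 CPM under sham surgery and 19.2 ± 1.61 after injury. Their log2 fold changes were -0.03, -0.13, 0.09, -0.41 and -0.20, and 0 of the 5 passed an unadjusted p-value under 0.05 in edgeR. Among the members they resemble, *Rps27* had -0.15 (SE 0.16), *Rps4x* -0.06 (SE 0.16), *Rpl7* -0.05 (SE 0.15) and *Rpl36a* 0.08 (SE 0.17). *Rpl10* had 0.15 (SE 0.12) and *Rpl26* -0.13 (SE 0.15), and their paralogs were not tested here.

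The fold changes of the members followed the length of their transcripts. Of the 17 members under 500 bases, 14 were negative with a median log2 fold change of -0.18, and of the 53 at 500 bases or more, 25 were negative with a median of 0.03. Across the 70 members Spearman's rho between fold change and length was 0.48, and across 14147 genes with a length it was -0.11. Genes of 1 set of libraries are not independent, so these are descriptions. With offsets for length in the fit, rho was 0.07 in the members, and the median log2 fold change was 0.04 beside 0.05 over all genes. The median length was 614 bases in the members and 2242 over all genes. In that fit the second *Rps10* row passed an unadjusted p-value under 0.05, and 9.23% of all genes were higher.

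**Figure D5:**
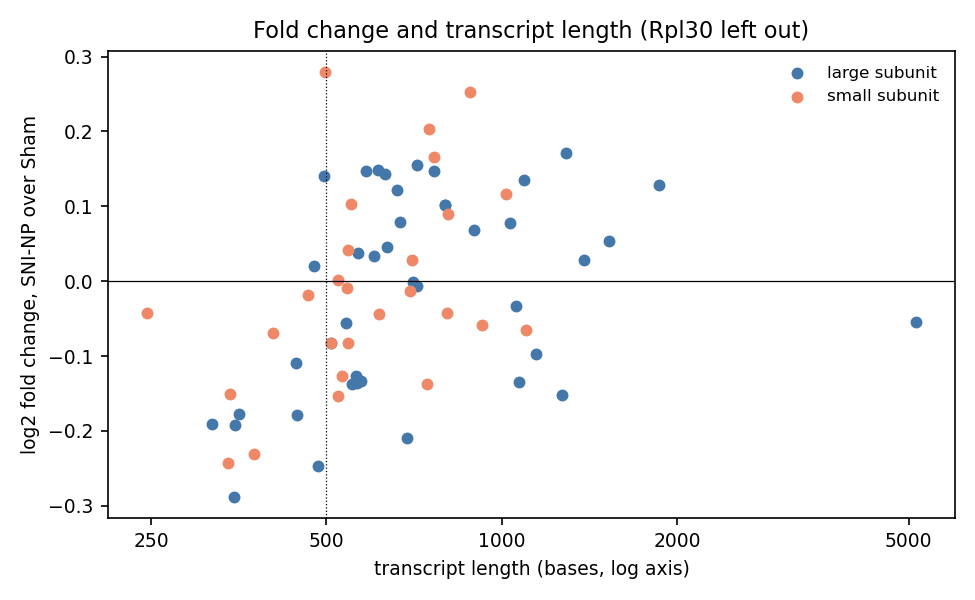
The log2 fold change, SNI-NP over sham (vertical axis), is plotted against transcript length in bases (horizontal log axis) for 69 members (blue, large subunit; orange, small subunit; Rpl30 left out), with a dotted line at 500 bases. Most members left of the line lie below 0, and those right of it lie on both sides.

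The rest of the translation machinery was compared with lists. Of 8 elongation factors, 0 passed an unadjusted p-value under 0.05 in edgeR, with a median log2 fold change of 0.14. Their summed level was 5123 to 5728 CPM in sham rats and 5915 to 6512 CPM in SNI-NP rats, without overlap. The summed level of the assembly genes was 1668 to 1677 CPM in sham rats and 1627 to 1657 CPM in SNI-NP rats, without overlap in the other direction. Of single genes tested, 10.4% had SNI-NP above and 8.15% below sham without overlap. *Eif5a*, a factor for stalled peptide bonds, had 0.25 (SE 0.11) and *Eef2*, the translocase, 0.19 (SE 0.11).
Of 35 initiation factors, 2 were higher and 3 lower at an unadjusted p-value under 0.05 (median 0.03), and for this and the lists that follow the share over all genes was 4.91% higher and 5.94% lower. *Eif5b*, which joins the subunits, was at 26.4 ± 3.43 CPM under sham surgery and 15.8 ± 6.12 after injury (SD, n = 3 per group), so its log2 fold change was -0.74 (SE 0.27), and *Eif3j*, a loosely bound part of eIF3, had -0.66 (SE 0.24). Of 17 other transcripts with a TOP motif, 0 were higher and 1 was lower (median 0.08). This was *Npm1*, a nucleolar chaperone of ribosome assembly, with -0.42 (SE 0.13), and *Vim* had 0.30 (SE 0.15).
Among 59 assembly genes 1 was higher and 3 were lower (median 0.01), *Npm1* and *Brix1* (-0.61 (SE 0.21)), a large subunit assembly factor, having the smallest p-values. Among 33 genes of the mTORC1 pathway 1 was higher and 3 were lower (median 0.02). *Larp1*, which binds TOP mRNAs, was at 75.7 ± 7.68 CPM under sham surgery and 61.1 ± 0.423 after injury (SD, n = 3 per group), so its log2 fold change was -0.31 (SE 0.10). *Eef2k*, the kinase that inhibits *Eef2*, had 0.30 (SE 0.10). The edgeR adjusted p-values of these named genes were between 0.424 and 0.531. In the 73 mitochondrial ribosomal protein genes 0 passed in either direction (median 0.00), with -0.27 (SE 0.12) for *Mrpl43* and -0.30 (SE 0.14) for *Mrpl42*.

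Some markers of other cells passed the unadjusted threshold. At an unadjusted p-value under 0.05 in edgeR, 6 of 8 erythroid, 4 of 10 neutrophil and 3 of 7 B cell genes were higher after injury, and 4 of 15 neuronal and 2 of 13 dorsal root ganglion genes were lower. The dorsal root ganglion list as a whole had 7 positive and 6 negative log2 fold changes with a median of 0.01, and its sum was 814 to 1654 CPM in sham rats and 277 to 2215 CPM in SNI-NP rats. *Slc4a1*, of the red cell membrane, had 1.84 (SE 0.49), *Prtn3*, of neutrophil granules, 1.21 (SE 0.31), *Cd79b*, of the B cell receptor, 1.28 (SE 0.28), and *Slc17a6*, a glutamate transporter of neurons, -0.77 (SE 0.16). The summed levels of the erythroid genes were 977 to 2373 CPM in sham rats and 2132 to 5121 in SNI-NP rats. For astrocytes, 0 of 9 were higher and 1 was lower (*Slc1a2*, -1.08; *Aqp4*, -0.69), and for microglia (*Cx3cr1*, -0.22; *Trem2*, 0.27) and oligodendrocytes (*Mobp*, -0.77; *Sox10*, 0.25) 0 passed in either direction. For peripheral myelin (*Prx*, 0.36; *Cdh19*, -0.80), meninges (*Col1a1*, 0.43; *Col3a1*, 0.30) and skeletal muscle (*Myh4*, 3.01; *Tnnt3*, 2.43) 1 gene each was higher and 0 were lower. Positive and negative log2 fold changes numbered 7 and 1 for peripheral myelin (median 0.24) and 8 and 1 for meninges (0.30). They numbered 2 and 13 for neurons (-0.55), 1 and 8 for astrocytes (-0.20), 6 and 7 for microglia (-0.03) and 3 and 7 for oligodendrocytes (-0.44). The part of these cells in the level of the members was not tested.

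The counts over the members depended on which rat was left out. Without Sham replicate 2, the median log2 fold change was 0.11, and 5 members were higher at an unadjusted p-value under 0.05 in edgeR, *Rps2*, *Rpl12*, *Rpl3*, *Rpl10* and the second row of *Rpl32*, against 6.30% of all genes. In that comparison 16 members (22.5%) had SNI-NP above sham without overlap, against 17.8% of all genes. Without Sham replicate 1, the median was -0.13, 2 members were lower, *Rpl37* and *Rps28*, against 4.10% of all genes, and 8 (11.3%) had SNI-NP below sham, against 12.1% of all genes. In that comparison 1 member was higher, again the second row of *Rpl32*, against 2.11% of all genes. This row was at 0 in every sham library and was not tested in the main fit. In both comparisons it passed the filter only through its SNI-NP counts, so it could only be higher there. The sign of the median thus turned with the sham library left out.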

How the data were processed

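RNA-seq of 3 sham and 3 SNI-NP spinal cord samples was used. The authors deposited 2 values for each gene and library, an estimated count that is not normalized and an FPKM. They mapped reads to Rat6 and kept unique sequences, and the submitters' processing notes name FastQC, STAR and HTSeq; the use of strand is not given in the sources used here. These sources do not say how counts that are not whole arose. Counts divided between rows make single rows of near-identical copies uncertain.

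Estimated counts were rounded and tested by edgeR 4.0.16 (R 4.3.3; filterByExpr, TMM, quasi-likelihood test, condition as the single term), with Benjamini-Hochberg adjustment over 14426 genes. Transcript lengths follow from count, total and FPKM. Rows were assigned to proteins by the descriptions in the table. The common biological coefficient of variation was 0.223. In simulated counts with 200 of 14426 genes changed by 2 log2 units, 88.5% were recovered and 2.75% of calls were false; length offsets lowered a simulated trend over 14147 genes from a rho of 0.67 to 0.01.

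Named members are the 5 highest and 5 lowest by FPKM, the 5 higher and 5 lower with the smallest p-values, the 5 with counts that are not whole and the largest fold changes, the stalk proteins, *Rpsa* and *Rps6*, the 3 with the largest variation, and those with a paralog; from each other list the 2 with the smallest p-values were named. Members passing an alternative, *Rpl8*, *Rps3a*, *Rpl7a* and the rows named with them were chosen after their values were seen. Some genes that these rules name are not reported here. The members and lists were chosen with earlier results of these data known. Alternatives were DESeq2 1.42.0, RLE and upper-quartile factors, TMM factors without the members, no filter, at least 10 counts in every library, the replicate block, loess length offsets (span 0.5) with and without it, FPKM ratios (pseudocount 0.1 or 1), other rows of the protein added, and each library left out; scaling to the members' sum was added after seeing the data.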

Additional observations from a re-analysis of the deposited data

How the results depend on the processing

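Of the values compared between settings, 99 values over the whole family moved by less than the spread between libraries or stayed near the main count, and 22 moved further. Of 188 fold changes of single members, 0 changed sign and 187 stayed on their side of the threshold, and that of *Rpl30* passed it without SNI-NP replicate 1. The median changed sign in 4 of 19 settings, with length offsets (0.04), with length offsets and the replicate block (0.05), with Sham replicate 2 left out (0.11) and with SNI-NP replicate 3 left out (0.02). The median log2 fold change of the members stayed between -0.06 and 0.05 in the settings with all 6 libraries. Members called at an adjusted p-value under 0.05 numbered 0 to 2 when each library was left out. The 2 were *Rpl30* and the second row of *Rpl32* without SNI-NP replicate 1, where 222 genes were called in all. That row of *Rpl32* was at 0 in every sham library and was not tested in the main fit. It passed the filter there only through its SNI-NP counts, and the log2 ratio of the L32 sum over all 6 libraries was -0.04. Members higher at an unadjusted p-value under 0.05 numbered 0 to 5 and members lower 0 to 2, members with SNI-NP above sham 0 to 16 and below sham 1 to 8. Over all genes, the shares without overlap with 1 library left out were 11.9% to 17.8% above and 12.1% to 18.2% below. With no filter on low counts 1 member was higher (*Rpl32*, second row), and with at least 10 counts in every library 0 had SNI-NP below sham, since *Rpl30* was not tested. With length offsets 1 was higher (*Rps10*, second row), against 9.23% of all genes. In that fit 3 members (4.29%) had SNI-NP above sham and 0 below, against 15.3% and 6.57% of all genes. Scaled to the members' summed counts, a setting added after seeing the data, 0 members were called. In that setting 11 members (15.7%) had SNI-NP above sham, against 4.85% of all genes. Another 21 (30%) had SNI-NP below sham, against 6.95% of all genes. Each member is part of the sum it was scaled by, and division by the family sum lowered the members' spread within groups.

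The labels do not say whether rats with the same replicate number were paired. The deviations of same-numbered libraries correlated at 0.21, -0.14 and 0.05, and those of differently numbered libraries at -0.24 to 0.22. With 3 libraries per group, these values cannot decide whether the rats were paired. With the replicate block, alone or with length offsets, 1 member was lower at an unadjusted p-value under 0.05, *Rpl30*, with log2 fold changes of -4.11 and -3.88, and edgeR adjusted p-values of 0.488 and 0.43.

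The median half-width of the intervals was 0.33 on the log2 scale with 3 rats per group, and no comparison at another depth was made.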

Other observations

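Rows outside the rule carried the counts of some ribosomal proteins. LOC685963, described as L38-like, was at 31.6, 71.1 and 38.5 among sham rats, against 33.9, 37.8 and 28.9 after injury, in CPM, so that Sham replicate 2 stood apart from the other 5 libraries. LOC108349682, described as L35a-like, was at 12.4, 21.6 and 19.4 among sham rats, against 13.5, 12.8 and 12.2 after injury, and its 3 SNI-NP values were close to each other while the sham values were spread. The S25-like row AABR07073045.1 was counted at 0, 25.94 and 0 among sham rats, against 0, 185.38 and 0 after injury, and the S25 sum over its rows was 141 ± 29.8 CPM under sham surgery and 132 ± 18.5 after injury (SD, n = 3 per group). These rows were chosen after their values were seen.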
